A study of Rattus norvegicus with 8 samples.

Results

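A set of 10 genes that move phosphate or pyrophosphate across membranes, or that make and cleave pyrophosphate, was examined in the liver of rats fed a high phosphorus (HP) diet and of rats fed a control diet. They were Slc20a1, Slc20a2, Slc34a2, Slc17a2, Slc17a3, Slc17a4, Xpr1, Ankh, Enpp1 and Alpl, chosen by name with earlier results of these data known. Every probe set listed for one of these symbols alone was taken. This gave 12 probe sets of the 20826 that carry a single symbol on the array (10 of 14217 genes). The rats were male Wistar animals, 4 weeks old on arrival and 8 weeks old at sampling. All ate the control diet, which held 0.3% phosphorus in an AIN-93G base, for 7 days of acclimatization. The control group (4 rats with arrays) then stayed on it for 24 days, while the HP group (4 rats with arrays) ate the same base with 1.2% phosphorus. Each liver was read on 1 Affymetrix GeneChip array, and the labels name the arrays of a group as biological replicates.

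Cells take up inorganic phosphate through sodium-coupled transporters, of which the SLC20 pair is found in most tissues and SLC34 members mainly in absorbing epithelia, and release it through Xpr1. Pyrophosphate outside cells holds back the deposition of calcium phosphate. It is made from released ATP by Enpp1, depends on Ankh for the release of ATP and pyrophosphate from the cell, and is cleaved to phosphate by Alpl, tissue-nonspecific alkaline phosphatase.

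Of these genes, Ankh and Slc20a2 were lower in HP rats by one of the tests used, and 0 were higher. Both probe sets of Ankh and 1 of the 2 of Slc20a2 were called lower by rank products, a method that orders the probe sets within each of the 16 differences between an HP and a control array, at a false discovery rate (FDR) under 0.05. That is 3 of the 8 member probe sets with a measured difference (37.5%), on 2 of 7 genes. Lower calls made up 12.1% of all 4155 probe sets with one and 1.62% of all 31099 on the array (1.14% higher). Of the 3 calls, 2 read the same gene, and the members were chosen with earlier results known. The contrast of these shares is therefore a description and no test of the set. By limma, a linear model that moderates the spread of a probe set by that of the others, 0 member probe sets passed a Benjamini-Hochberg adjusted p under 0.05 (two-sided), as did 0 of all 4155 (0%). At an unadjusted limma p under 0.05 there were 2 lower members (both of Ankh) and 0 higher, with 7.29% of the 4155 lower and 5.37% higher. The median difference of the 8 was -0.09 on the log2 scale, against -0.02 over all 4155. All members were compared in the same 8 livers, and in bulk tissue fewer cells of a type and less RNA per cell cannot be told apart.

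The values are log2 levels from FARMS, a factor analysis that leaves a probe set almost constant where its probes share no variation over the arrays. This also held for bright probe sets, such as 1367555_at of Alb (mean level 14.53, span 0.000176). A probe set whose highest and lowest values lay under 0.05 apart (log2) over the 8 arrays was taken to have no measured difference. Xpr1 (1375846_at), Enpp1 (1370047_at) and Alpl (1368139_s_at), each read by 1 probe set, fell on that side, as did 1369234_at of Slc20a2. Their mean levels were 7.46, 8.32, 6.52 and 6.79 (log2), and their spans ran from 0.000395 to 0.000769. The phosphate exporter and the enzymes that form and cleave pyrophosphate therefore had no measured difference between the diets, which is no statement that their RNA was equal or absent. The other 8 probe sets spanned 0.281 (1372747_at of Slc20a2) to 1.11 (Slc34a2), so no member lay near the 0.05 limit. Of all 31042 probe sets, 13.4% spanned at least 0.05.

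**Figure D1:**
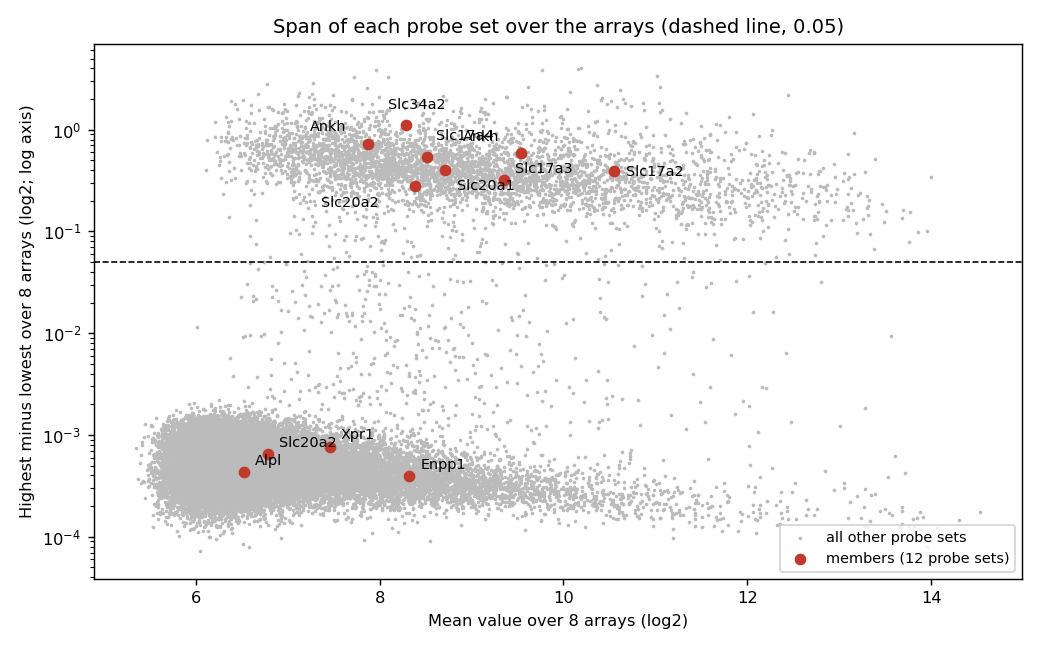
Span of every probe set (highest minus lowest value over the 8 arrays, log2, drawn on a log axis) against its mean value (log2), with the 12 member probe sets in red and all others in grey. The members lie in both bands: 4 at spans of 0.000395 to 0.000769 and 8 at 0.281 to 1.11, with the limit of 0.05 dashed.

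Ankh, the membrane protein on which release of ATP and pyrophosphate depends, was lower in HP rats at both of its probe sets. With 1369249_at, the 4 control rats had levels of 8.22, 7.69, 8.26 and 8.09 and the 4 HP rats 7.65, 7.62, 7.95 and 7.53 (log2). The other control rats stood above every HP rat, while control rat 2 lay below HP rat 3, the one overlap between the groups. Of the 4 HP rats, 3 lay below the lowest control rat. The means were 8.06 ± 0.26 and 7.69 ± 0.18 (SD, n = 4 each), a difference of -0.38 (limma SE 0.14, 95% interval -0.70 to -0.05), which is 0.770 times the control level.

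The second probe set, 1393439_a_at, gave 9.85, 9.40, 9.75 and 9.70 in control rats and 9.41, 9.26, 9.58 and 9.32 in HP rats. The same rats stood out here, control rat 2 low among controls and HP rat 3 high among HP rats, and 2 of 4 HP rats lay below the lowest control rat. The means were 9.67 ± 0.19 and 9.39 ± 0.14 (SD, n = 4 each), a difference of -0.28 (limma SE 0.11, 95% interval -0.52 to -0.04), or 0.823 times the control level. Over the 8 arrays the 2 probe sets had a Pearson's r of 0.972, a description of probe sets that read the same RNA extracts.

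Rank products gave Ankh an FDR of 0.00648 at 1369249_at and 0.0224 at 1393439_a_at. The limma adjusted p was 0.357 at both, from unadjusted values of 0.0271 and 0.0270. Without control rat 3 both calls by rank products were lost, at FDRs of 0.0779 and 0.117; the call of 1393439_a_at was also lost without control rat 1 (FDR 0.111) or control rat 4 (0.0974). With only the probe sets that span 0.05 ranked, the FDRs were 0.343 and 0.615. Without control rat 2, the low control, the difference at 1369249_at was -0.50 (limma adjusted p 0.328).

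The bases before the start of Ankh are shown because it is the one gene among the members that was called at every probe set it has. The sequence is the RefSeq promoter on GRCr8, chr2:79883201-79883450, plus strand, 250 bases that end at the base before the annotated start, and capitals mark the GC boxes found.
Ankh: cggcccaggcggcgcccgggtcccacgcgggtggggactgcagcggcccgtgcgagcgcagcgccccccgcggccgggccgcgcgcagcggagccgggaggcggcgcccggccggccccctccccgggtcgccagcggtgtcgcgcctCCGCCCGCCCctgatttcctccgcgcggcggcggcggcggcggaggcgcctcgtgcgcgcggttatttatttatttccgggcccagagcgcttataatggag
The window is 79.2% G and C, against a median of 51.2% over the same 250 bases of 33469 rat promoters. Searched on both strands, it held 2 overlapping matches to the GC box GGGCGG, both on the minus strand and beginning 102 and 98 bases before the start, a motif found in 30.5% of those promoters. It held 0 matches to the TATA box TATAAA, which 12.9% of the promoters hold, to the CCAAT box (34.0%), to the E-box CACGTG (5.59%) or to the nuclear receptor hexamer AGGTCA (14.1%). These are matches of letters and no evidence of binding.

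Slc20a2, a sodium-phosphate cotransporter of the SLC20 pair, was lower by a small margin in every HP rat at 1372747_at. The control rats had levels of 8.35, 8.42, 8.54 and 8.51 and the HP rats 8.33, 8.26, 8.33 and 8.32 (log2). The groups did not overlap, but the highest HP rat lay only 0.016 below control rat 1, the lowest control; 4.07% of the 4155 probe sets separated the diets in this direction and 3.10% in the other. The difference of the means, 8.45 ± 0.09 and 8.31 ± 0.03 (SD, n = 4 each), was -0.14 (limma SE 0.06, 95% interval -0.29 to 0.0011), or 0.905 times the control level.

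The call of Slc20a2 was a borderline one. Its rank products FDR was 0.0494, and 4 other random seeds left it just under 0.05. It was above 0.05 with quantile normalization (0.0682), without the dimmest 25% of probe sets (0.0864), with only the probe sets that span 0.05 ranked (0.976), and without any one of the 8 rats (0.0508 to 0.181). The limma adjusted p was 0.398 (unadjusted 0.0514). The other probe set of the gene, 1369234_at, had no measured difference, so the difference rests on 1 of 2 probe sets.

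**Figure D2:**
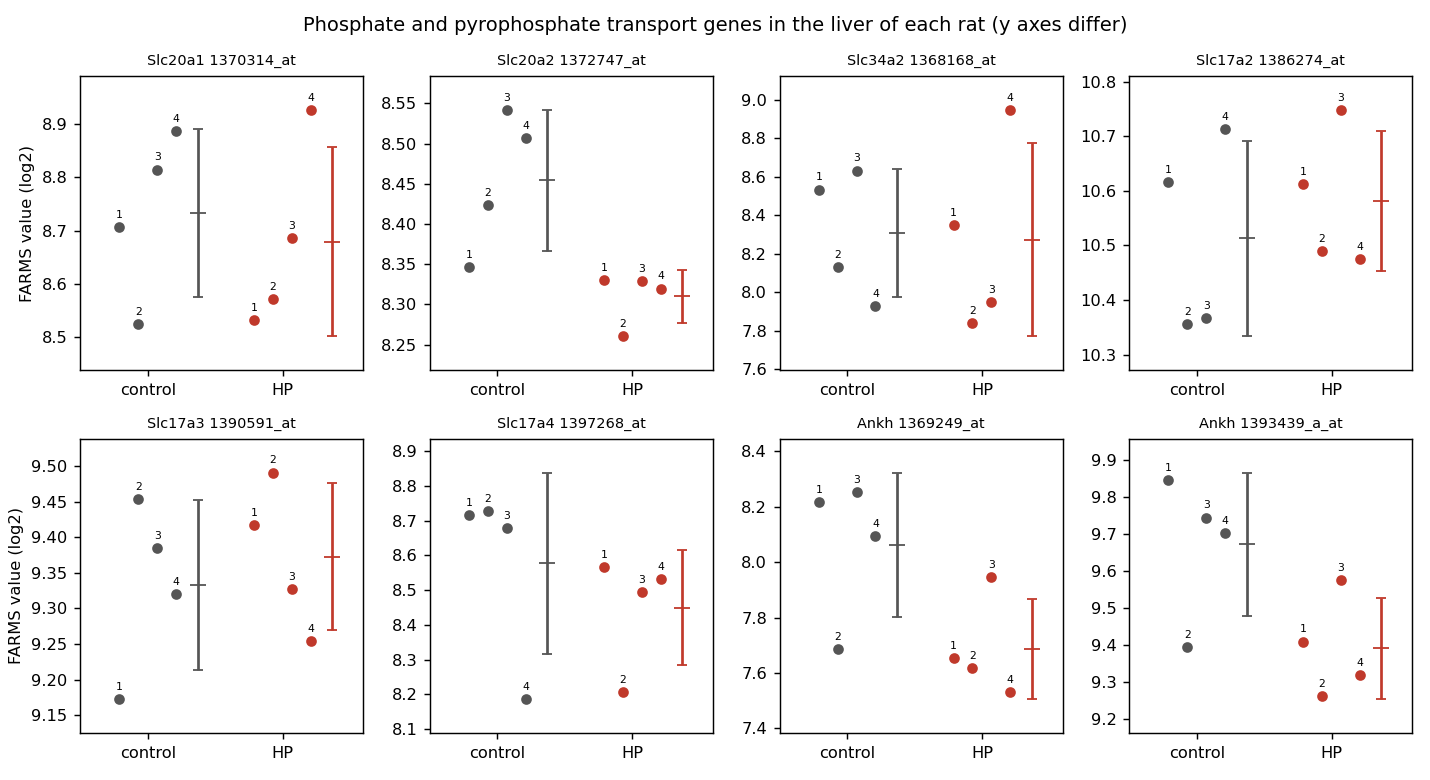
FARMS level (log2) of each of the 8 measured member probe sets in each rat, control in grey and HP in red, numbered by replicate, with the mean and SD of each group (n = 4) beside the points and a separate y axis per panel. The HP rats lie below all control rats for Slc20a2 1372747_at, 3 of 4 do so for Ankh 1369249_at, and the groups overlap in the other panels.

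Slc20a1, the other SLC20 cotransporter, was not called. Its levels at 1370314_at were 8.71, 8.52, 8.81 and 8.89 in control rats and 8.53, 8.57, 8.69 and 8.93 in HP rats. The highest of all was an HP rat and the lowest a control rat, and the groups overlapped throughout. The difference was -0.05 (limma SE 0.11, 95% interval -0.30 to 0.19, adjusted p 0.854), so that levels from 0.812 to 1.14 times the control level lie within the interval. Leaving out 1 rat moved it from -0.14 (HP rat 4 left out) to -0.0025 (control rat 4 left out).

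Slc34a2, the sodium-phosphate cotransporter of small intestine and lung epithelium, varied most among the rats and was not called. At 1368168_at the control rats had levels of 8.53, 8.13, 8.63 and 7.93 and the HP rats 8.35, 7.84, 7.95 and 8.95 (log2). HP rats held both the highest and the lowest value. The difference was -0.03 (limma SE 0.25, adjusted p 0.969), and its 95% interval of -0.61 to 0.54, the widest of the 8, leaves room for levels between 0.657 and 1.45 times control. The sign turned in 4 of the 8 fits that left out 1 rat, from -0.26 (HP rat 4 left out) to 0.11 (HP rat 2 left out).

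The SLC17 members were named for sodium-dependent phosphate transport and are also known to carry organic anions such as urate. Slc17a2 (1386274_at) gave 10.62, 10.36, 10.37 and 10.71 in control rats and 10.61, 10.49, 10.75 and 10.47 in HP rats. Control rats 2 and 3 were the lowest, and the remaining values of both diets were interleaved. The difference was 0.07 (limma SE 0.10, 95% interval -0.15 to 0.29, adjusted p 0.780). It ran from 0.013 with HP rat 3 left out to 0.14 with control rat 4 left out, and was 0.16 with array weights.

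Slc17a3 (1390591_at) gave 9.17, 9.45, 9.38 and 9.32 in control rats and 9.42, 9.49, 9.33 and 9.25 in HP rats. The lowest value was that of control rat 1 and the groups otherwise overlapped. The difference was 0.04 (limma SE 0.08, 95% interval -0.14 to 0.22, adjusted p 0.848).

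Slc17a4 (1397268_at) gave 8.72, 8.73, 8.68 and 8.19 in control rats and 8.57, 8.20, 8.50 and 8.53 in HP rats. Control rats 1, 2 and 3 lay above every HP rat, and control rat 4 was the lowest of all 8. The difference was -0.13 (limma SE 0.14, 95% interval -0.44 to 0.18, adjusted p 0.699), with a rank products FDR of 0.0953. Without control rat 4 it was -0.26 (limma adjusted p 0.345), and without HP rat 2 it was -0.05.

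**Figure D3:**
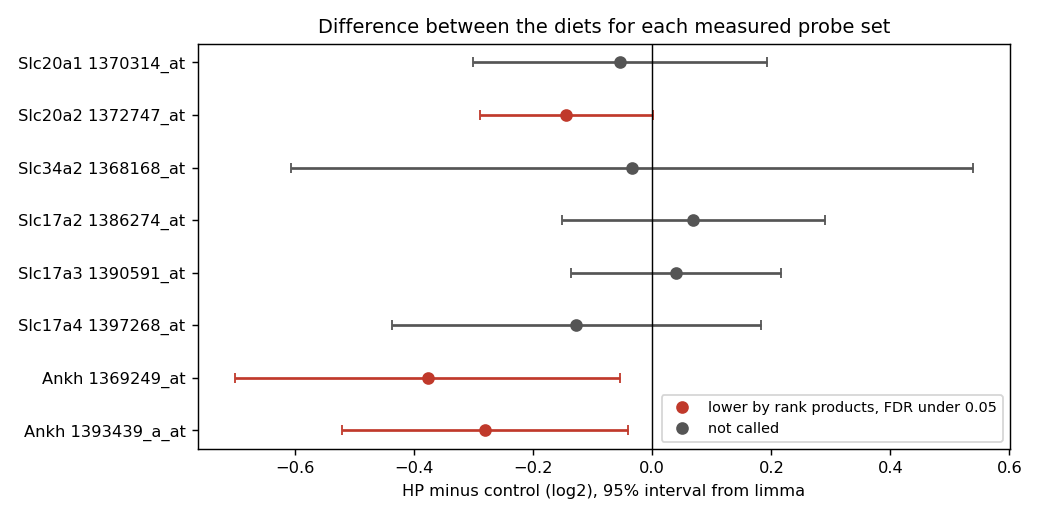
Difference between the diets (HP minus control, log2) for the 8 measured member probe sets, with the 95% interval from limma (n = 4 rats a group) and the probe sets called lower by rank products in red. Both Ankh intervals lie below 0, that of Slc20a2 1372747_at reaches 0.0011, and the other 5 hold 0 well inside.

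The rank products calls were set against other settings of the same method. Ankh 1369249_at kept an FDR under 0.05 in 14 of 16 alternatives, Ankh 1393439_a_at in 12, and Slc20a2 1372747_at in 5. Those 5 were 4 other random seeds and centring on the median of measured probe sets, which does not alter the ranks. The Ankh counts include the same 5. The number of member probe sets called lower was 3 with all rats, 1 without control rat 1 or control rat 4, and 0 without control rat 3. Lower calls over all 31099 probe sets fell as well, from 505 to 253, 120 and 71 without control rats 1, 4 and 3. Ranking only the probe sets that span 0.05 left 0 of 3 member calls and 16 lower and 25 higher calls in all.

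**Figure D4:**
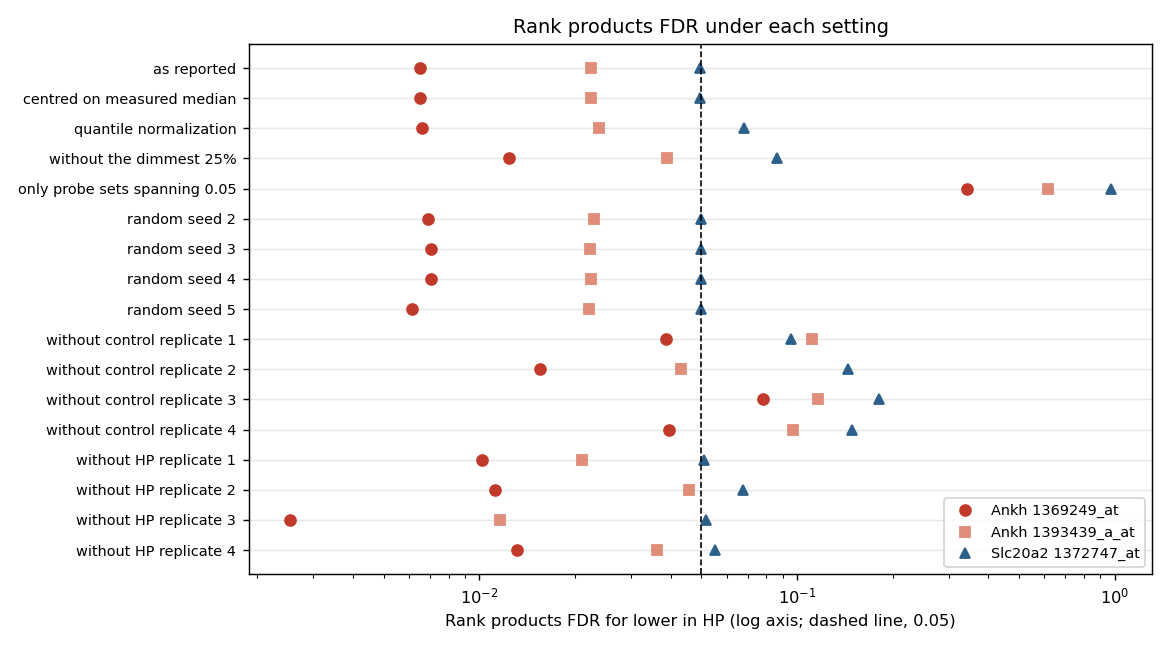
Rank products FDR for a lower level in HP rats (log axis) of the 3 called member probe sets under the reported setting and 16 alternatives, with 0.05 dashed. Ankh 1369249_at exceeds the limit without control rat 3 (0.0779) and with only probe sets spanning 0.05 ranked (0.343), while Slc20a2 1372747_at lies from just under the limit to 0.976.

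Related genes of phosphate handling were taken as 6 lists, of 77 genes in all. Probe sets were found for 68 genes, and the 9 others include Slc53a1, which is another name of Xpr1. Of their 97 probe sets, 27 (on 25 genes) spanned at least 0.05. Rank products called 4 of the 27 lower (14.8%, against 12.1% of all 4155) and 0 higher (against 8.50%), limma called 0, and the median difference was -0.05 against -0.02 over all 4155.

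Of the 4, 3 were mitochondrial carriers that exchange phosphate for other solutes, out of 6 measured probe sets of other phosphate transporters (median difference -0.15). Slc25a25 (1371754_at), a calcium-regulated carrier of ATP-magnesium and phosphate, gave 10.22, 9.60, 9.88 and 9.95 in control rats and 9.78, 9.25, 9.61 and 9.67 in HP rats. Control rat 1 was high and HP rat 2 low, and only HP rat 2 lay below the lowest control. The difference was -0.34 (limma SE 0.15, adjusted p 0.392), or 0.792 times control, with a rank products FDR of 0.0197.

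Slc25a10 (1370020_at), which exchanges dicarboxylates such as malate for phosphate, gave 8.64, 8.77, 9.03 and 9.07 in control rats and 8.47, 8.58, 8.48 and 8.85 in HP rats. HP rats 1, 2 and 3 lay below every control rat, and HP rat 4 lay among the controls. The difference was -0.28 (limma SE 0.12, adjusted p 0.388), with an FDR of 0.0201 by rank products. The other probe set of the gene, 1383886_at, spanned 0.0228 and so had no measured difference.

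Slc25a23 (1379073_at), another carrier of ATP-magnesium and phosphate, gave 8.91, 8.93, 9.12 and 9.21 in control rats and 9.06, 8.62, 8.72 and 8.75 in HP rats. HP rat 1 lay among the controls and the other HP rats lay below them. The difference was -0.26 (limma SE 0.11, adjusted p 0.384), with a rank products FDR of 0.0245. Of the same gene, 1377550_at gave -0.05 with a rank products FDR of 0.307, and 1379169_at had no measured difference. The measured probe sets of Slc25a3, the main mitochondrial phosphate carrier, and of Slc37a4, the glucose-6-phosphate transporter, differed by -0.00301 and -0.05 and were not called.

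The fourth was Slc9a3r1 (1387793_at, also named Nherf1), a scaffold protein that holds phosphate transporters at the membrane of kidney tubule cells. Its levels were 9.70, 9.64, 9.82 and 9.81 in control rats and 9.52, 9.63, 9.66 and 9.30 in HP rats. Only HP rat 3 lay above a control rat, and the difference was -0.21 (limma SE 0.09, adjusted p 0.372; rank products FDR 0.0337). Its second probe set, 1370032_at, had no measured difference.

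**Figure D5:**
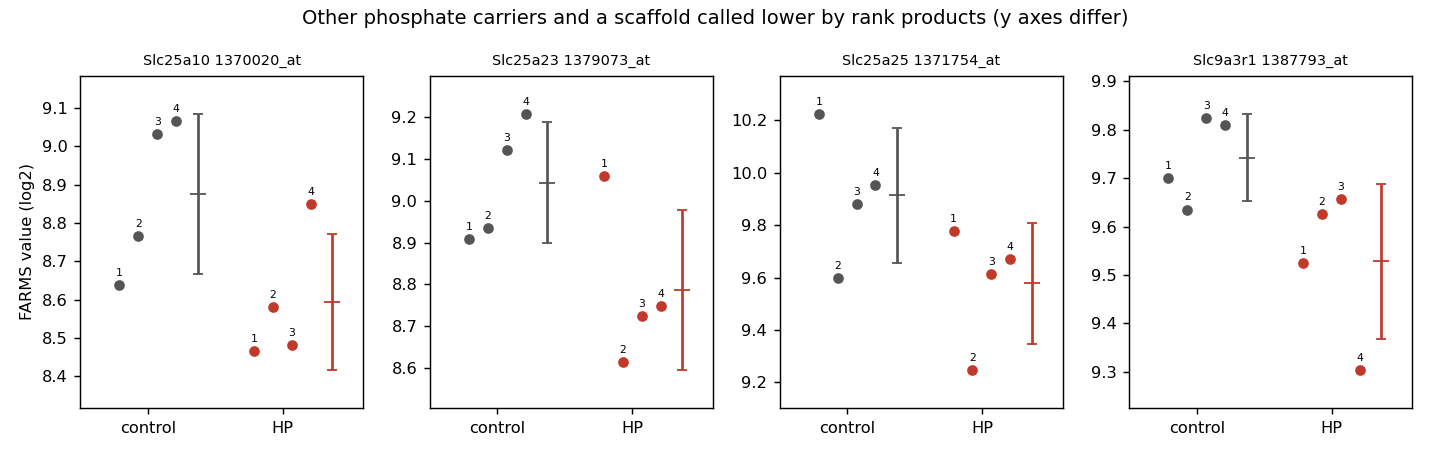
FARMS level (log2) in each rat of the 4 related probe sets called lower by rank products, control in grey and HP in red, numbered by replicate, with the mean and SD of each group (n = 4) and a separate y axis per panel. The groups overlap in every panel, by 1 HP rat among the controls for Slc25a10, Slc25a23 and Slc9a3r1.

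These calls also moved with single rats. Without control rat 1 there were 2 (Slc25a10 and Slc25a23), without control rat 2 there was 1 (Slc25a25), and without HP rat 2 there were 2 (Slc25a10 and Slc9a3r1). Without control rat 3 or control rat 4 there were 0 lower calls and 1 higher call each, Egr1 at an FDR of 0.0323 and Bmp2 at 0.0378. Without HP rat 4 the call of Slc9a3r1 was lost and Enpp2 was called lower (FDR 0.0179), so that the count stayed at 4. The call of Slc9a3r1 was also lost with quantile normalization and without the dimmest 25% of probe sets, which left 3. Lower calls over all 31099 probe sets moved too, from 505 to 253, 83, 71 and 120 without control rats 1, 2, 3 and 4. They ran from 399 to 540 with 1 HP rat left out.

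In the remaining lists 0 probe sets were called by either test with all rats. Of the 6 measured probe sets for the turnover of pyrophosphate and nucleotides outside the cell, 6 differed by less than 0, against 56.5% of all 4155, with the largest differences in Enpp5 (-0.14, limma adjusted p 0.669) and Enpp2 (-0.14, adjusted p 0.626), which makes lysophosphatidic acid. Abcc6, the hepatic transporter needed for ATP release and circulating pyrophosphate, differed by -0.04 (limma adjusted p 0.822). Of the pyrophosphatases inside the cell, Ppa1 differed by -0.09 and Itpa by -0.000989.

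The list of calcification inhibitors and matrix proteins also held Bmp2, a secreted growth factor that promotes bone formation, and Tnfrsf11b, osteoprotegerin, which holds back bone resorption. It had 3 measured probe sets, with Bmp2 at 0.11 and Tnfrsf11b at 0.08. Among phosphate hormones and vitamin D genes, 6 were measured, with the vitamin D-binding protein Gc at -0.08 and Fgfr2 at 0.07 (limma adjusted p 0.464 and 0.795). Fgf23, its co-receptor Kl, the vitamin D receptor Vdr and the kidney transporters Slc34a1 and Slc34a3 had no measured difference.

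For the called members, the genes with the most similar course over the 8 arrays were found among the measured probe sets, and their r values describe these arrays only, where the diets and the RNA extracts are shared. Nearest to Ankh 1369249_at were Utp6 (Pearson's r 0.970), Cebpz (0.951) and Ddx21 (0.937). Nearest to Ankh 1393439_a_at were Tob1 (0.950), Gstm7 (0.931) and again Utp6 (0.930). Nearest to Slc20a2 1372747_at were Hacd3 (0.979), Slc25a44 (0.964) and Hsp90ab1 (0.963). Between members, Slc20a2 and Ankh, both picked as called lower, had r values of 0.644 and 0.595. Values of similar size stood between uncalled members, such as Slc20a1 and Slc17a3 (-0.613) and Slc17a4 and Slc34a2 (0.593).

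The samples carried hepatocyte RNA, with mean levels of 13.13 for Apoa1, 13.38 for 1388190_at of Apob and 13.16 for Arg1 (log2). The table ran from 5.35 to 14.53, and the other Apob probe set, 1371157_at, had a mean of 7.06. Of the 6 measured hepatocyte probe sets, 4 differed by less than 0. Rank products called 1 lower, Cps1 of the urea cycle (1370151_at, -0.27, FDR 0.0176, no overlap), and 1 higher, 1382496_at of the transcription factor Hnf4a (0.45, FDR 0.00548), while 1392969_at of Hnf4a differed by -0.10 and was not called. Array medians over the whole table were all 6.65, but only 13.4% of probe sets spanned 0.05, so this equality says little about the arrays. Over the 4155 probe sets the medians were 8.77 to 8.81 in control rats and 8.76 to 8.79 in HP rats. With the arrays centred on these medians, the difference of Slc20a2 1372747_at was -0.12 (limma unadjusted p 0.0901). Array pairs had r values of 0.968 to 0.992 across the 4155 probe sets. Cholangiocyte markers were measured at 0 of 7 probe sets. The 9 measured probe sets of Kupffer cell markers averaged 8.88 to 9.21 in control rats and 8.85 to 9.05 in HP rats, with 9 of 9 differences below 0 and 1 called lower by rank products (Cd5l). The 5 of sinusoidal endothelium averaged 9.47 to 9.64 and 9.62 to 9.76, with 5 of 5 above 0 and 2 called higher (Stab2 and Kdr). The 7 of stellate cells averaged 8.14 to 8.43 and 8.19 to 8.42, with 0 called. Another 7 hepatocyte, 2 Kupffer cell, 4 endothelial and 10 stellate cell probe sets had no measured difference. Among them were other probe sets of Apob, Cps1, Cd5l and Kdr. Of all 4155 probe sets, 12.1% were called lower and 8.50% higher, and 4.07% separated the diets with HP rats lower. The part of these marker differences in the differences of Ankh and Slc20a2 was not tested.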

How the data were processed

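Liver RNA of 8 rats was read on 1 Affymetrix rat array each. According to the authors, the probes were summarised with FARMS, in R 2.13.1 per the labels, and the deposited values are log2 levels. No normalization was added, and the one used between arrays was not given in the sources used here. Groups were taken from the labels. Probe sets were named where the platform annotation lists 1 symbol (436 list several and 9780 none).

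Rank products were computed in Python 3.11.15 (numpy 2.4.6) over all 31099 probe sets, 57 of them controls, with 1000 permutations within each array and an FDR under 0.05. Differences, SEs, 95% intervals and p-values came from limma 3.58.1 in R 4.3.3 (eBayes, trend and robust options) over the 4155 non-control probe sets spanning at least 0.05, Benjamini-Hochberg adjusted over all of them. Both scripts were also run on simulated data, with an outcome that is not given here and that lends the calls no support. Files were handled with pandas 2.3.3 and scipy 1.17.1, and figures drawn with matplotlib 3.10.9. The number of arrays limits the precision.

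All members were described. Of the related lists, probe sets called by a test were named, otherwise the 2 with the largest difference per list; other genes were named after their values were seen. For each called member probe set, the 3 genes with the highest r were named. The members and lists were chosen with earlier results of these data known. Alternatives were centring on the median of measured probe sets, quantile normalization, other span and brightness filters, other random seeds, plain empirical Bayes, array weights, a replicate block (statmod 1.5.0), the mean of a gene's probe sets and leaving out each rat.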

Additional observations from a re-analysis of the deposited data

Results flagged for a closer look

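In 2 of the 40 groups of 4 rats examined, 1 rat lay far from the other rats of its group, and chance gives about 1 in 20 such groups. For Slc17a4 (1397268_at), control rat 4 was at 8.19 (log2), with the other control rats at 8.68 to 8.73. For Slc20a2 (1372747_at), HP rat 2 was at 8.26, with the other HP rats at 8.32 to 8.33; without it the difference was -0.13.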

How the results depend on the processing

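Rank products called 3 member and 4 related probe sets lower, and 0 of each when only probe sets spanning 0.05 were ranked, an alternative with 4167 probe sets in place of 31099. Leaving out 1 rat gave 0 (without control rat 3) to 3 member calls, all lower, and 1 to 4 related calls in either direction, with 0 lower and 1 higher without control rat 3 or control rat 4. Over all 31099 probe sets, leaving out 1 rat gave 71 to 540 lower calls (505 with all rats) and 84 to 583 higher (353). Centring left rank products as they were, since an equal shift of an array does not alter the ranks. Limma called 0 member and 0 related probe sets in the 17 alternatives, with adjusted p from 0.275 to 0.638 for Ankh 1369249_at, 0.278 to 0.638 for Ankh 1393439_a_at and 0.172 to 0.647 for Slc20a2 1372747_at. The difference of Ankh 1369249_at ran from -0.50 to -0.27, the latter with array weights. Of the 136 differences recomputed for members, 5 turned in sign: Slc17a3 to -0.013 without control rat 1 (up to 0.0798 without control rat 2), and Slc34a2 (down to -0.26 without HP rat 4) to 0.04 without control rat 1, 0.07 without control rat 3, 0.11 without HP rat 2 and 0.07 without HP rat 3. The causes were not tested.

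The replicate numbers are shared by the diets, but the deviations of same-numbered rats had correlations of 0.479, 0.0308, -0.123 and -0.197, so they were not taken as pairs. With the replicate block, limma called 0 member and 0 related probe sets, with adjusted p of 0.359 and 0.354 for Ankh and 0.441 for Slc20a2 1372747_at, and differences as in the fit without it.

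With 4 rats a group, the limma SEs of the member differences ran from 0.06 (Slc20a2) to 0.25 (Slc34a2) on the log2 scale. FARMS keeps few dim probe sets, with 1.27% of those at a mean of 5 to 7 spanning 0.05 against 70.1% at 11 to 15.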
